A study of Mus musculus with 9 samples.

Results

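The genes for subunits of the ionotropic and metabotropic glutamate receptors and of the GABA-A receptors were followed in bulk RNA-seq of newborn mouse cortex. Members were chosen by gene symbol alone, as every gene of the table whose symbol is that of a *Gria*, *Grid*, *Grik*, *Grin*, *Grm* or *Gabr* subunit, and 41 of the 24624 genes listed met this rule. Of these, 25 encode glutamate receptor subunits and 16 encode GABA-A subunits. The cortices came from postnatal day 0 (P0) pups of crosses between Fezf2+/- mice and Fezf2+/-; Fezf2-EnR mice, and RNA of each pair of hemispheres gave 1 library per mouse. There were 3 Fezf2+/+ libraries (bc201, bc202 and bc203), 4 Fezf2-/- libraries (bc204, bc205, bc206 and bc207) and 2 Fezf2-/-; Fezf2-EnR libraries (bc208 and bc209), and values below follow this order within each genotype. FEZF2 is a zinc finger transcription factor of deep-layer cortical projection neurons, and the Fezf2-/- mice carry constitutive null alleles that express placental alkaline phosphatase from the *Fezf2* promoter. Fezf2-/-; Fezf2-EnR mice carry the same null alleles and a bacterial artificial chromosome transgene, in which the DNA-binding domain of FEZF2 joined to a repressor domain from engrailed replaces FEZF2 under the *Fezf2* regulatory region. The transgene is 1 mouse line, and the sex of the pups was not determined in the study. The comparisons address which subunit transcripts depend on FEZF2 and which of them a purely repressing form of FEZF2 brings back.

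Fast excitation in the cortex runs through AMPA receptors, built from the products of *Gria1* to *Gria4*, while kainate receptors (*Grik*) tune release and slow synaptic currents and NMDA receptors (*Grin*) pass calcium when glutamate and depolarization coincide. Delta receptors (*Grid*) act mainly as adhesion partners of cerebellins, and metabotropic receptors (*Grm*) signal through G proteins. GABA-A receptors are chloride channels of alpha, beta and gamma or other subunits, and around birth the alpha2, alpha3 and alpha5 subunits are prominent, while the NMDA subunit *Grin2b* prevails over *Grin2a*.

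The table gives, for each gene and library, the number of reads after division by the library's size factor, here called a normalized count. The values of a library summed to between 20097781 and 21058156, and in the 7 libraries in which whole reads could be recovered there were 18716575 to 25127623 reads, so that 1 normalized count is worth about 1 read. *Fezf2* itself had normalized counts of 1232, 1010 and 979 in Fezf2+/+, 223, 193, 242 and 209 in Fezf2-/-, and 907 and 1001 in Fezf2-/-; Fezf2-EnR, where transcripts of the transgene and of the null alleles are not separated. The labels name 3 litters, and these are only partly crossed with genotype: litter m1 held 2 Fezf2+/+ and 2 Fezf2-/- mice, litter m2 held bc203 and bc209, and litter m3 held bc204, bc207 and bc208. Markers of cortical projection neurons were high in all libraries (summed normalized counts of 52311 to 53954 in Fezf2+/+, 47263 to 59767 in Fezf2-/-, and 47669 and 59629 in Fezf2-/-; Fezf2-EnR). The 9 markers of GABAergic neurons summed to 6663 to 6992 in Fezf2+/+, 8349 to 9616 in Fezf2-/-, and 7867 and 6678 in Fezf2-/-; Fezf2-EnR, and the 5 markers of thalamic neurons to 1149 to 1219, 1481 to 1920, and 1431 and 1125. The markers of radial glia and astrocytes summed to 12331 to 12766, 13035 to 15485, and 15599 and 13850, and those of oligodendrocyte precursors to 4849 to 5148, 5512 to 5780, and 5391 and 5411. None of these 4 sums overlapped between Fezf2-/- and Fezf2+/+. The sums of the projection neuron markers did overlap between these genotypes. So did the sums for microglia, endothelial cells, meningeal fibroblasts, choroid plexus, proliferating cells and red blood cells. The 7 striatal markers in the table summed to 3472 in bc204 and 2572 in bc208, against 1032 to 1789 in the other 7 libraries. None of the markers of any of these lists was at 0 in every library. In bulk RNA, fewer cells of a type and less RNA per cell cannot be told apart.

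To set the scale, the levels of members in Fezf2+/+ cortex were compared per kilobase of exon, since longer transcripts gather more reads. Levels are described here for 32 of the 37 members tested. Among these, *Grm3*, an inhibitory autoreceptor that glia also carry, was high at 844 ± 52.3 normalized counts per kb (SD, n = 3), above *Gabra3*, an alpha subunit of immature cortex, at 751 ± 28.4. The ranges of these genes over the Fezf2+/+ libraries overlapped neither each other nor that of the next gene described. *Grik5* (683 ± 32.5) and *Gabra5* (668 ± 19.3) came next, with overlapping ranges. *Gria1* (599 ± 12.6), *Grm5* (574 ± 24.2) and *Grik3* (556 ± 15.7) followed, again with overlapping ranges. Within the NMDA family *Grin2b* led (429 ± 38.8), before the obligatory subunit *Grin1* (250 ± 24.7) and *Grin3a* (171 ± 13.0), whereas *Grin2a*, the subunit of mature synapses, stood at 18.8 ± 4.14. Among alpha subunits, *Gabra2* (263 ± 33.0) stood below *Gabra3* and *Gabra5*. At the low end, *Gabrd* (18.5 ± 2.12), *Gabrq* (4.65 ± 0.287) and *Grin2c* (2.04 ± 0.496) were still above the minimum used for testing.

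**Figure D1:**
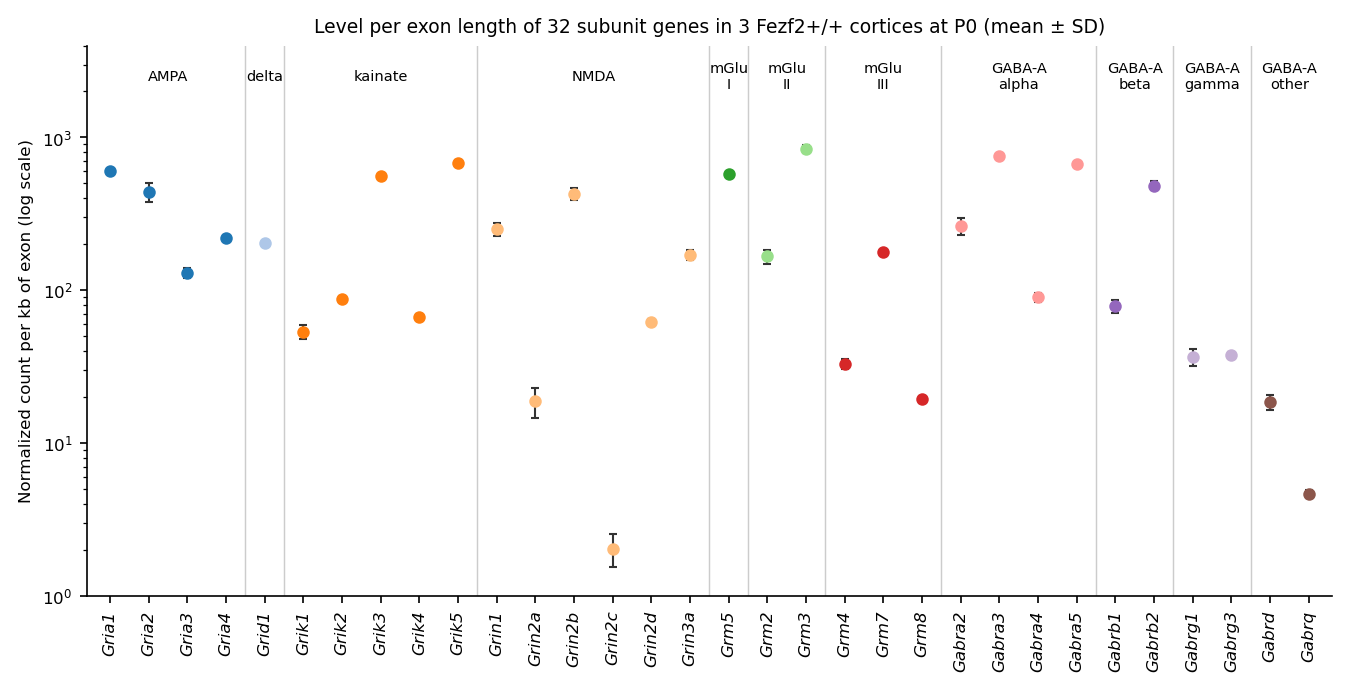
Normalized counts per kb of exon (log axis) of 32 members tested, in 11 subfamilies, as the mean and SD of 3 Fezf2+/+ libraries. Levels run from 2.04 (*Grin2c*) to 844 (*Grm3*).

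The other 4 members did not reach a mean of 10 over the 9 libraries and were not tested. The rho subunits *Gabrr1* and *Gabrr2*, typical of retina, did not exceed 4.22 and 3.98 normalized counts in any library, and *Gabre*, the epsilon subunit, did not exceed 4.17. *Grin3b*, the NMDA subunit of motor neurons, was at 0 in 7 libraries and did not exceed 2.11. A value of 0 in a library still allows up to 3 reads, which is 2.49 to 3.28 normalized counts in the libraries with recovered reads, and this limit covers counting error only. No direction was drawn for these genes.

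Summed per kb over a family, AMPA transcripts stood at 1390 ± 62.8 in Fezf2+/+ (SD, n = 3), 1727 ± 196 in Fezf2-/- (SD, n = 4) and 1591 ± 116 in Fezf2-/-; Fezf2-EnR (SD, n = 2). The lowest Fezf2-/- sum, 1583, was above the highest Fezf2+/+ sum, 1455. Delta transcripts stood at 220 ± 4.35, 266 ± 17.2 and 210 ± 41.9, and NMDA transcripts at 933 ± 28.7, 1077 ± 153 and 1019 ± 85.5. Kainate (1448 ± 21.2, 1399 ± 40.5 and 1477 ± 94.7), metabotropic (1874 ± 64.0, 1955 ± 210 and 1914 ± 162) and GABA-A sums (4421 ± 72.2, 4660 ± 207 and 4307 ± 155) overlapped between Fezf2-/- and Fezf2+/+.

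In Fezf2-/- against Fezf2+/+, no member passed the test. limma on log2(normalized count + 1), fitted over 16197 genes in all 9 libraries and called at a Benjamini-Hochberg adjusted p under 0.05, called 0 of the 37 members, and 0.858% of all genes tested. Of the members, 28 had a positive and 9 a negative log2 fold change, with a median of 0.15 against 0.00 over all genes. At an unadjusted p under 0.05, 12 members were higher (*Gabra5*, *Gabrg3*, *Gabrq*, *Gria1*, *Gria3*, *Gria4*, *Grid1*, *Grik1*, *Grin2d*, *Grin3a*, *Grm5* and *Grm7*) and 4 were lower (*Gabrd*, *Grik3*, *Grik4* and *Grm3*), where all genes gave 6.61% higher and 4.21% lower. The 4 Fezf2-/- libraries lay wholly above the 3 Fezf2+/+ libraries in 13 members and wholly below them in 4, against 6.53% and 6.46% of all genes. Glutamate receptor genes had a median of 0.21 (19 of 24 positive) and GABA-A genes one of 0.05 (9 of 13 positive). All 4 AMPA and all 6 NMDA genes tested had positive values. The 9 GABAergic markers had a median log2 fold change of 0.47 in the same comparison, with 0 of them called, and the 4 tested thalamic markers one of 0.40, with 1 called. The medians of the radial glia and astrocyte markers and of the oligodendrocyte precursor markers were 0.25 and 0.23, with 0 called. The 7 markers of cortical projection neurons had a median of -0.02, with 1 called lower. The part of these cells in the members' values was not tested. Among the 4 Fezf2-/- libraries, bc207 of litter m3 was the highest in 26 of the 37 members. This was not counted over all genes, so it is not read as a trait of the members.

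Fezf2-/-; Fezf2-EnR against Fezf2-/- gave 1 called member, *Grik3*, which rose, where 0.766% of all genes were called. The median log2 fold change of the 37 members was -0.18, against 0.00 over all genes, and 23 were negative. At an unadjusted p under 0.05, 4 were higher (*Gabra2*, *Grik2*, *Grik3* and *Grm3*) and 11 lower (*Gabra3*, *Gabra5*, *Gria1*, *Gria4*, *Grid1*, *Grik1*, *Grik5*, *Grin1*, *Grin2d*, *Grm2* and *Grm5*), against 7.87% and 9.06% of all genes. Fezf2-/-; Fezf2-EnR against Fezf2+/+ gave 0 called members and 0.117% of all genes, and at an unadjusted p under 0.05 it gave 6 higher members (*Gabra2*, *Gabrb1*, *Gria3*, *Grik2*, *Grik3* and *Grin2b*) and 3 lower ones (*Gabra3*, *Grik4* and *Grik5*), against 10.5% and 8.72% of all genes. The comparisons share libraries, so a low Fezf2-/- value enters 2 of them with opposite sign, and their values are set side by side without a test of likeness. The Fezf2-/-; Fezf2-EnR group has 2 libraries, and bc208 was above bc209 in 28 of the 37 members, which was not counted over all genes. Without bc208 the comparison with Fezf2-/- called 10 members and 6.72% of all genes, and without bc209 it called 0 members and 0.13% of all genes, so that its counts moved with single mice over the whole table. An exact permutation test of 2 libraries against 4 cannot go below p = 0.0667. The 2 Fezf2-/-; Fezf2-EnR libraries lay wholly above Fezf2-/- in 3 members and wholly below in 9, against 1941 and 2041 of the 16197 genes tested. Relative to Fezf2+/+ they lay wholly above in 7 members and below in 3, against 2797 and 2806 of all genes. Lack of overlap with this group was therefore common over the whole table.

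**Figure D2:**
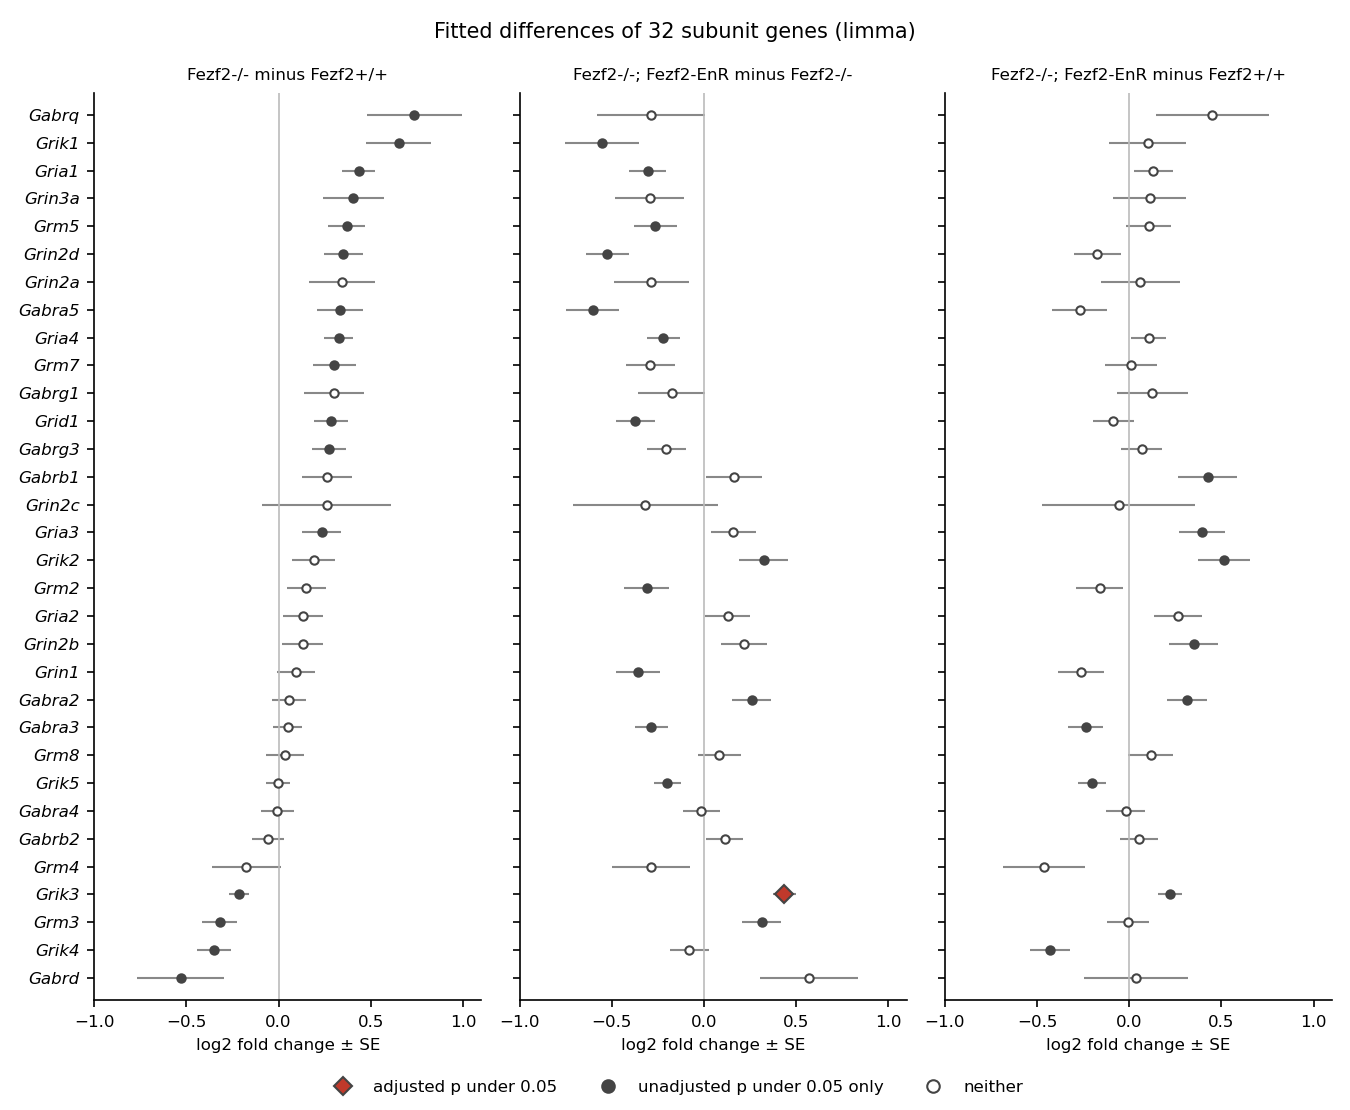
Log2 fold change (bars: standard error) of 32 members tested in the 3 comparisons, ordered by Fezf2-/- against Fezf2+/+, from limma on all 9 libraries. The diamond marks *Grik3*, the 1 member called, at 0.44 in Fezf2-/-; Fezf2-EnR against Fezf2-/-, and filled circles mark an unadjusted p under 0.05 alone.

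The 1 called member was a kainate receptor gene. *Grik3* (ENSMUSG00000001985.9, GRCm38 chr4:125490700-125714173, plus strand) encodes GluK3, a low-affinity kainate subunit found in deep cortical layers. It had normalized counts of 4974, 4864 and 5143 in Fezf2+/+, 4006, 4290, 4376 and 4530 in Fezf2-/-, and 5761 and 5860 in Fezf2-/-; Fezf2-EnR. The 3 genotypes did not overlap, with Fezf2-/- the lowest and Fezf2-/-; Fezf2-EnR the highest. Lack of overlap with a group of 2 libraries was common, as the counts over all genes above show. *Grik3* rose in Fezf2-/-; Fezf2-EnR against Fezf2-/- by a log2 fold change of 0.44 (SE 0.06, limma adjusted p = 0.0107). As all mice of these groups also differed in *Xist* (values below), sex and genotype cannot be told apart in this difference. Within litter m3 the same order held, with 4006 and 4530 in Fezf2-/- against 5761. With litter as a block the log2 fold change was 0.41 (adjusted p = 0.0432), without bc208 it was 0.45 (adjusted p = 0.0144), and without bc209 it was 0.42 and no longer passed (adjusted p = 0.113). Over all 19 alternatives its adjusted p ran from 0.00937 to 0.113, and 18 of them called it. Against Fezf2+/+, *Grik3* differed by -0.22 in Fezf2-/- (SE 0.05, adjusted p = 0.139, and -0.18 within litter m1) and by 0.22 in Fezf2-/-; Fezf2-EnR (SE 0.07, adjusted p = 0.148), neither of which passed the test.

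*Grik4* encodes the high-affinity GluK4 and had normalized counts of 399, 386 and 414 in Fezf2+/+, 313, 323, 333 and 286 in Fezf2-/-, and 326 and 270 in Fezf2-/-; Fezf2-EnR. Both Fezf2-/- genotypes lay below every Fezf2+/+ library, and they overlapped each other. Its log2 fold change was -0.35 in Fezf2-/- (SE 0.09, adjusted p = 0.158) and -0.43 in Fezf2-/-; Fezf2-EnR (SE 0.11, adjusted p = 0.126; -0.56 without bc208 and -0.29 without bc209) against Fezf2+/+, and -0.08 between those groups (SE 0.10, adjusted p = 0.742). *Grik1*, the gene of GluK1, a subunit common in interneurons, had 381, 384 and 315 in Fezf2+/+, 543, 556, 492 and 679 in Fezf2-/-, and 508 and 291 in Fezf2-/-; Fezf2-EnR. Fezf2-/- lay above Fezf2+/+ in every library (log2 fold change 0.65, SE 0.18, adjusted p = 0.171; 0.45 within litter m1 and 0.38 with litter as a block), whereas the 2 Fezf2-/-; Fezf2-EnR libraries fell apart, the one from litter m3 within the Fezf2-/- range and the other below Fezf2+/+ (-0.55 against Fezf2-/-, SE 0.20, adjusted p = 0.215). That value was -0.15 without bc209, -0.36 with litter as a block, and -0.95 without bc208, where it passed (adjusted p = 0.0168). *Grik2* (GluK2, the most widespread kainate subunit) had 1113, 1157 and 1208, then 1616, 1190, 1100 and 1444, then 1725 and 1589. Its Fezf2-/- libraries split by litter, with bc204 and bc207 of litter m3 high, and its log2 fold change in Fezf2-/-; Fezf2-EnR was 0.32 against Fezf2-/- (SE 0.13, adjusted p = 0.260) and 0.51 against Fezf2+/+ (SE 0.14, adjusted p = 0.135). With litter as a block the latter was 0.30 (adjusted p = 0.171). Without litter m3, which leaves bc209 as the only Fezf2-/-; Fezf2-EnR library, the values were 0.47 and 0.46. *Grik5*, the obligate partner GluK5, had 3460, 3724 and 3413 in Fezf2+/+ and 3378 to 3657 in Fezf2-/-, but 3317 and 2837 in Fezf2-/-; Fezf2-EnR (-0.20 against Fezf2-/-, SE 0.07, adjusted p = 0.224). This was -0.09 without bc209, -0.13 with litter as a block, and -0.31 without bc208, where it passed (adjusted p = 0.0424).

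As a share of all kainate transcripts per kb, *Grik3* made up 38.4% ± 1.496 in Fezf2+/+ (SD, n = 3), 34.3% ± 1.09 in Fezf2-/- (SD, n = 4) and 43.9% ± 3.35 in Fezf2-/-; Fezf2-EnR (SD, n = 2), with no overlap between genotypes. *Grik1* made up 3.70% ± 0.388, 6.03% ± 0.696 and 3.98% ± 1.29. The range of the summed kainate level overlapped between all 3 genotypes.

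The stretch of 250 bases before a gene's start site is shown for *Grik3*, the called member, and for *Grm3* and *Gabra5*, whose values in Fezf2-/-; Fezf2-EnR against Fezf2-/- lay in the same and in the opposite direction. The sequences are RefSeq promoter entries (GRCm38.p6, written 5′ to 3′ on the strand of the gene), which exist for 26 of the 41 members. Capitals mark GGGCGG or its reverse complement, the core of the GC box that SP-family factors read. The RefSeq start used for *Grm3* lies 182 bases upstream of the start in the annotation used for the gene coordinates, that of *Grik3* lies 4 bases upstream, and that of *Gabra5* is the same. No binding or chromatin was measured here.
Grik3, chr4:125490446-125490695, plus strand: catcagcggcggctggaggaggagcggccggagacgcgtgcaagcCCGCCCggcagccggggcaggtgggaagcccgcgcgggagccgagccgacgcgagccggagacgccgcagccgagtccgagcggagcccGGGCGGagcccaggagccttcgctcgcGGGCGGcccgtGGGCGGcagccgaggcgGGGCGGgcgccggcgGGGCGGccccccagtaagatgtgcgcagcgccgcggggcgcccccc
Grm3, chr5:9725353-9725602, minus strand: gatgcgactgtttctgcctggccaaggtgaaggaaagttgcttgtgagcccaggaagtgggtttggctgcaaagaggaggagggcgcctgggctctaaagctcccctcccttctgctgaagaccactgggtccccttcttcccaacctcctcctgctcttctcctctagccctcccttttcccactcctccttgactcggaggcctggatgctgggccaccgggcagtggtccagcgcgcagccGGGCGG
Gabra5, chr7:57510060-57510309, minus strand: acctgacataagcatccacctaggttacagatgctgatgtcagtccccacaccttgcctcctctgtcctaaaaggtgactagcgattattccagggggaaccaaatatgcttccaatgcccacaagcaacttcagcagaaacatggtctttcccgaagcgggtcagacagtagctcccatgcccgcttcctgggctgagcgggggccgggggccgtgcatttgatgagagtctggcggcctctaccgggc
The *Grik3* stretch held the motif 6 times and was 82.0% G and C, that of *Grm3* held it once at its end (62.4% G and C), and that of *Gabra5* held none (56.4%). Other members had an unadjusted p under 0.05 in Fezf2-/-; Fezf2-EnR against Fezf2-/- and an entry. Of these, the higher *Gabra2* and *Grik2* held it 1 and 0 times. The lower *Grm2* held it 3 times, *Grik5* 2 times, and *Gabra3*, *Gria4*, *Grin1* and *Grin2d* 0 times. A relation of the motif to direction was not tested. Of all 32851 promoter entries, 32.7% held the motif on either strand and 0.886% held it 6 times or more, and of the 33 entries of the members, 16 (48.5%) held it. A TATAAA, on either strand, was in none of the 3 stretches and in 12.4% of all entries.

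Among AMPA receptor genes, *Gria1* came closest to the threshold in Fezf2-/-. *Gria1* (ENSMUSG00000020524.16, GRCm38 chr11:57011387-57330244) encodes GluA1, the subunit most tied to activity-dependent insertion of receptors. It had normalized counts of 3672, 3653 and 3532 in Fezf2+/+, 4922, 4660, 4420 and 5638 in Fezf2-/-, and 4354 and 3598 in Fezf2-/-; Fezf2-EnR. All 4 Fezf2-/- libraries were above all libraries of the other genotypes, and bc209 lay among the Fezf2+/+ values. Relative to Fezf2+/+, the Fezf2-/- libraries differed by a log2 fold change of 0.43 (SE 0.09, limma adjusted p = 0.0584). An exact two-sided permutation test over 35 arrangements gave p = 0.0286, the smallest that 3 libraries against 4 allow. That p is not particular to *Gria1*, as *Gria4*, *Grid1*, *Grik1*, *Grik3* and *Grik4*, among others, had the same one. Fezf2-/-; Fezf2-EnR stood at -0.30 relative to Fezf2-/- (SE 0.10, limma adjusted p = 0.188), which was -0.17 without bc209 (adjusted p = 0.789) and -0.44 without bc208, where it passed (adjusted p = 0.0491). Within litter m1 the first difference was 0.31 (limma adjusted p = 0.0389), and DESeq2 on recovered reads of 7 libraries gave 0.44 with an adjusted p of 0.000367. It did not pass with edgeR on the same reads (0.44, adjusted p = 0.0661) or limma on the same 7 libraries (0.43, adjusted p = 0.0742). With litter as a block it was 0.31 and did not pass either (limma adjusted p = 0.0852). Over 23 alternatives its adjusted p ran from 0.000367 to 0.225, 8 of them (the unadjusted threshold included) called *Gria1*, and in none did its sign turn.

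*Gria4*, a subunit with fast kinetics that is common in interneurons, had 1440, 1329 and 1413 in Fezf2+/+, 1714, 1666, 1647 and 1981 in Fezf2-/-, and 1604 and 1401 in Fezf2-/-; Fezf2-EnR. The order of groups was that of *Gria1*, with log2 fold changes of 0.33 (SE 0.08, adjusted p = 0.124) and -0.22 (SE 0.09, adjusted p = 0.255), the latter -0.12 without bc209. *Gria3*, on the X chromosome, had 1325, 1175 and 1338, then 1468, 1371, 1360 and 1864, then 1717 and 1643. Both Fezf2-/- genotypes lay above Fezf2+/+ (0.23, SE 0.11, adjusted p = 0.460 in Fezf2-/-; 0.40, SE 0.13, adjusted p = 0.159 in Fezf2-/-; Fezf2-EnR). The first value was 0.13 without bc207, 0.13 within litter m1 and 0.16 with litter as a block, and the block took the second to 0.25. *Xist*, which female cells transcribe from the inactive X chromosome, was at 10771 in bc201, 12203 in bc208 and 7895 in bc209. It was at no more than 58.9 in the other 6 libraries, so both Fezf2-/-; Fezf2-EnR mice differed from all 4 Fezf2-/- mice in it. In Fezf2-/-; Fezf2-EnR against Fezf2-/-, sex and genotype therefore cannot be told apart, for X-linked members and for every other gene. *Gria2*, whose edited product makes AMPA receptors impermeable to calcium, had 6433, 6148 and 7942, then 7555, 6570, 7024 and 8854, then 8147 and 8166. Its Fezf2-/- libraries overlapped Fezf2+/+ (0.13, SE 0.11, adjusted p = 0.718).

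*Grid1*, a delta receptor of forebrain synapses, had normalized counts of 1218, 1183 and 1218 in Fezf2+/+, 1502, 1418, 1367 and 1606 in Fezf2-/-, and 1303 and 991 in Fezf2-/-; Fezf2-EnR. Fezf2-/- stood above the rest in every library, with log2 fold changes of 0.29 against Fezf2+/+ (SE 0.09, adjusted p = 0.277) and, for Fezf2-/-; Fezf2-EnR against Fezf2-/-, -0.37 (SE 0.10, adjusted p = 0.144). With litter as a block the first was 0.16 (adjusted p = 0.490). The second was -0.17 without bc209 and -0.57 without bc208, where it passed (adjusted p = 0.0131).

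NMDA receptor genes had log2 fold changes of 0.10 to 0.41 in Fezf2-/- against Fezf2+/+, and none passed the test. *Grin2d*, a subunit of immature cortex and of interneurons, had normalized counts of 398, 410 and 434 in Fezf2+/+, 499, 479, 524 and 621 in Fezf2-/-, and 403 and 334 in Fezf2-/-; Fezf2-EnR. Fezf2-/- lay above both other groups, which overlapped each other. Its log2 fold change relative to Fezf2+/+ was 0.35 (SE 0.10, adjusted p = 0.226; 0.26 with litter as a block, adjusted p = 0.424). With the transgene it stood at -0.52 relative to Fezf2-/- (SE 0.12, adjusted p = 0.0855), which was -0.66 without bc208 and -0.39 without bc209. *Grin3a*, which lowers calcium entry through young NMDA receptors, had 2209, 1913 and 2160, then 2807, 2460, 2282 and 3729, then 2713 and 1878. The Fezf2-/- values were all above Fezf2+/+ (0.41, SE 0.16, adjusted p = 0.403), with bc207 far above the other 3, and the log2 fold change was 0.21 within litter m1, 0.26 without bc207 and 0.17 with litter as a block. *Grin1* had 2520, 2605 and 2154, then 2319, 2677, 2553 and 2809, then 2304 and 1761. Its groups overlapped in Fezf2-/- against Fezf2+/+, and Fezf2-/-; Fezf2-EnR lay below Fezf2-/- (log2 fold change -0.36, SE 0.12, adjusted p = 0.189). This value was -0.17 without bc209, -0.21 with litter as a block, and -0.55 without bc208, where it passed (adjusted p = 0.0325). *Grin2b*, the most abundant NMDA transcript, had 9876 to 11740 in Fezf2+/+, 10412 to 14645 in Fezf2-/-, and 13325 and 13782 in Fezf2-/-; Fezf2-EnR, which lay above Fezf2+/+ (0.35, SE 0.13, adjusted p = 0.195; 0.23 with litter as a block). *Grin2a* had 270, 324 and 416, then 310, 452, 462 and 486, then 379 and 315, so that the genotypes overlapped (0.35 in Fezf2-/- against Fezf2+/+, SE 0.18, adjusted p = 0.536). Within litter m1, 452 and 462 in Fezf2-/- stood above 270 and 324 in Fezf2+/+, and the fit of that litter alone called it (0.63, SE 0.11, limma adjusted p = 0.0308). *Grin2c* had 7.38 to 11.8, 9.38 to 20.1, and 13.9 and 6.56, with overlap throughout. Exons of *Grin1*, *Grin2b* and *Grin2d* overlap antisense transcripts in the annotation, and as the use of strand in counting is not given in the sources used here, reads of the 2 strands cannot be told apart.

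**Figure D3:**
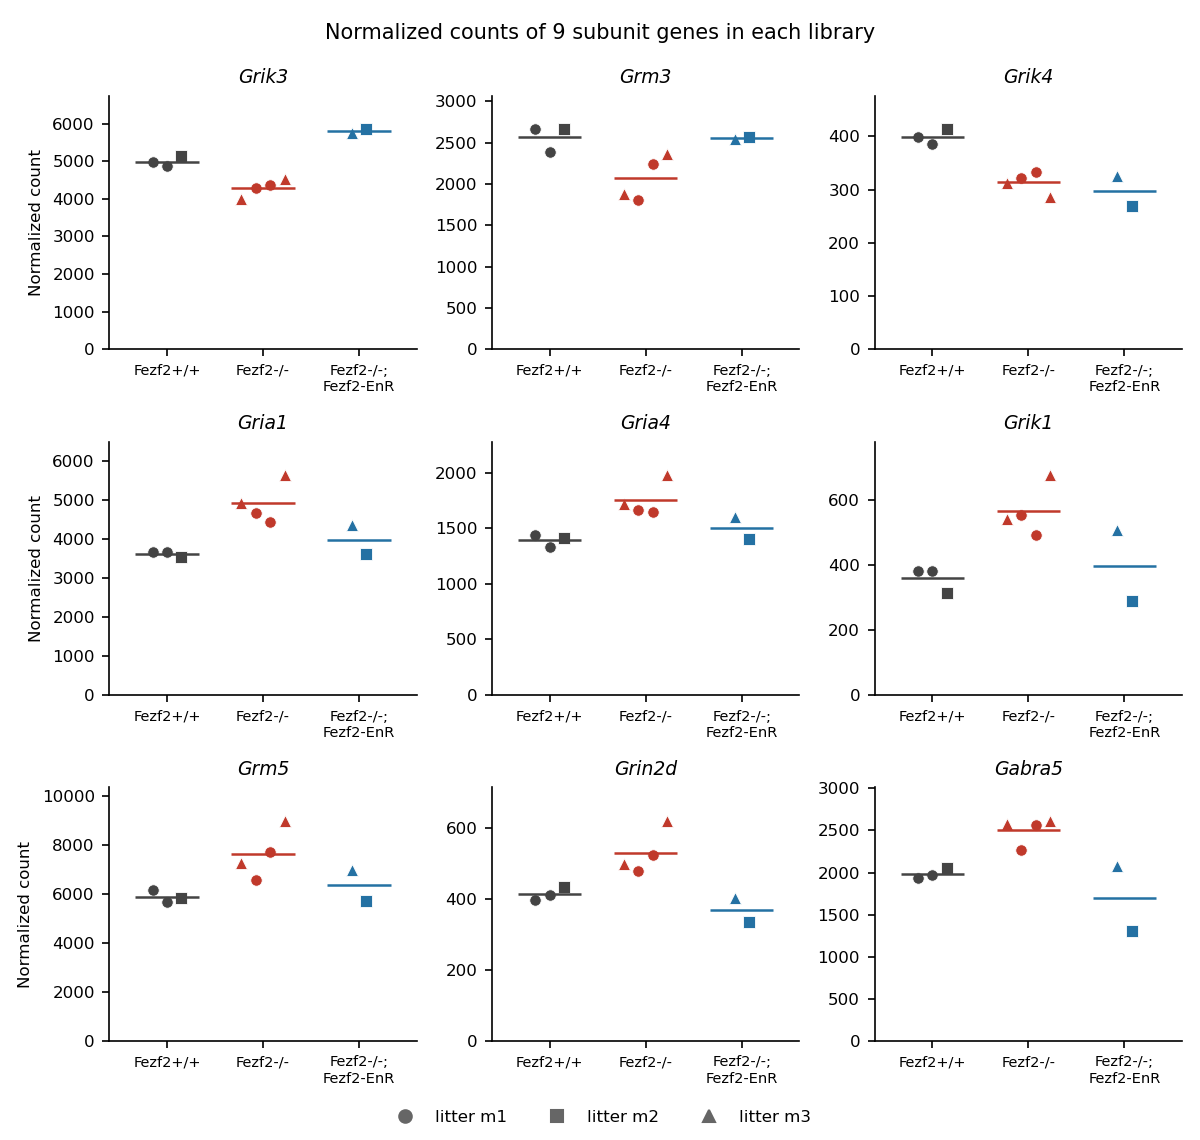
Normalized counts of 9 members in each library, with 1 point per mouse, shaped by litter, and a line at the mean of each genotype. *Grik3* is lowest in Fezf2-/- and highest in Fezf2-/-; Fezf2-EnR (5761 and 5860), *Grm3* is lowest in Fezf2-/-, *Grik4* is lower in both Fezf2-/- genotypes, and the other 6 are highest on average in Fezf2-/-.

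Metabotropic receptor genes fall into groups by G protein coupling, and none passed the test. *Grm5*, the main Gq-coupled receptor of young cortex, had normalized counts of 6153, 5665 and 5830 in Fezf2+/+, 7273, 6580, 7710 and 9005 in Fezf2-/-, and 6980 and 5736 in Fezf2-/-; Fezf2-EnR. Fezf2-/- lay above Fezf2+/+ (0.37, SE 0.10, adjusted p = 0.182; 0.27 within litter m1), and the Fezf2-/-; Fezf2-EnR libraries lay 1 in each of these ranges (-0.26 against Fezf2-/-, SE 0.12, adjusted p = 0.283; -0.12 without bc209 and -0.40 without bc208). In group II, which lowers cyclic AMP, *Grm3* had 2665, 2388 and 2663 in Fezf2+/+, 1881, 1808, 2238 and 2359 in Fezf2-/-, and 2544 and 2570 in Fezf2-/-; Fezf2-EnR. All Fezf2-/- libraries were below all others, at -0.32 against Fezf2+/+ (SE 0.09, adjusted p = 0.220; -0.33 within litter m1), and Fezf2-/-; Fezf2-EnR stood 0.31 above Fezf2-/- (SE 0.11, adjusted p = 0.196) and at -0.01 against Fezf2+/+ (adjusted p = 0.982). The gap between the Fezf2-/- library bc207 (2359) and the Fezf2+/+ library bc202 (2388) was small. *Grm2*, the presynaptic group II receptor, had 713, 841 and 887, then 768, 1040, 885 and 924, then 723 and 727, so that Fezf2-/-; Fezf2-EnR lay below Fezf2-/- (-0.31, SE 0.12, adjusted p = 0.237). Its exons overlap an antisense transcript. In group III, *Grm7*, the receptor of the presynaptic active zone, had 1038, 1083 and 1043, then 1237, 1259, 1258 and 1461, then 1298 and 871. Fezf2-/- lay above Fezf2+/+ (0.30, SE 0.12, adjusted p = 0.378; 0.15 with litter as a block, adjusted p = 0.671) and of the Fezf2-/-; Fezf2-EnR libraries bc208 lay within the Fezf2-/- range and bc209 below all Fezf2+/+ values. Exons of *Grm7* overlap an antisense transcript. *Grm4* (180 to 210, 147 to 194, and 192 and 105) and *Grm8* (180 to 198, 182 to 208, and 227 and 189) overlapped between Fezf2-/- and Fezf2+/+.

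*Gabra5* (ENSMUSG00000055078.7, GRCm38 chr7:57407672-57510059, minus strand), the gene of an extrasynaptic subunit of hippocampus and deep cortex, had normalized counts of 1940, 1971 and 2051 in Fezf2+/+, 2577, 2268, 2568 and 2618 in Fezf2-/-, and 2076 and 1308 in Fezf2-/-; Fezf2-EnR. The 4 Fezf2-/- libraries were the highest of all, and exons of the gene overlap an antisense transcript. Its log2 fold change relative to Fezf2+/+ was 0.33 (SE 0.13, adjusted p = 0.366), which was 0.30 within litter m1 and 0.16 with litter as a block (adjusted p = 0.655). Fezf2-/-; Fezf2-EnR stood at -0.60 relative to Fezf2-/- (SE 0.14, adjusted p = 0.0987), which was -0.27 without bc209 and -0.94 without bc208, where it passed (adjusted p = 0.00116). *Gabra3*, X-linked, had 3063, 2935 and 2841, then 2627, 3099, 3250 and 3258, then 2606 and 2396. Fezf2-/-; Fezf2-EnR lay below both other groups (-0.29 against Fezf2-/-, SE 0.09, adjusted p = 0.177), with the difference in *Xist* given above. *Gabra2*, a synaptic subunit of young neurons, had 2300, 1904 and 1832, then 2021, 2177, 1943 and 2187, then 2277 and 2718, with Fezf2-/-; Fezf2-EnR above Fezf2-/- (0.26, SE 0.10, adjusted p = 0.252; 0.13 without bc209) and bc208 within the Fezf2+/+ range. *Gabra4* (502 to 579, 492 to 596, and 514 and 565) overlapped between all genotypes.

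Among the partners of alpha subunits, *Gabrb2* had normalized counts of 2907 to 3316 in Fezf2+/+, 2723 to 3209 in Fezf2-/-, and 2881 and 3539 in Fezf2-/-; Fezf2-EnR, and Fezf2-/- overlapped Fezf2+/+. *Gabrb1*, found in glia as well as neurons, had 1020, 1046 and 1211, then 1291, 1221, 1082 and 1714, then 1541 and 1389, and Fezf2-/-; Fezf2-EnR lay above Fezf2+/+ (0.43, SE 0.16, adjusted p = 0.195; 0.20 with litter as a block). *Gabrg3* had 473, 450 and 432, then 568, 507, 522 and 591, then 528 and 425, with Fezf2-/- above Fezf2+/+ in every library (0.27, SE 0.09, adjusted p = 0.308; 0.15 with litter as a block and 0.16 within litter m1). *Gabrg1* (259 to 331, 285 to 421, and 379 and 260) overlapped. The rare theta subunit *Gabrq*, X-linked, had 26.2, 25.2 and 23.2, then 30.1, 40.3, 44.8 and 57.3, then 46.8 and 25.1 (0.74, SE 0.26, adjusted p = 0.319 in Fezf2-/- against Fezf2+/+). *Gabrd*, the delta subunit of tonic inhibition, had 50.7, 60.0 and 48.5, then 42.2, 39.2, 26.1 and 39.9, then 72.7 and 40.4 (-0.53, SE 0.24, adjusted p = 0.451; -0.83 with litter as a block). These 2 genes rest on few reads per library, and with a pseudocount of 0.1 their values were 0.76 and -0.54. The value of *Gabrq* was 0.54 with litter as a block, and that of *Gabrd* was -0.38 without bc206.

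Most GABA-A genes lie in clusters. On chromosome 7, *Gabra5* and *Gabrg3* had log2 fold changes of 0.33 and 0.27 in Fezf2-/- against Fezf2+/+. In the cluster on chromosome 5 (GRCm38 chr5:70751047-72149037), *Gabrg1* and *Gabrb1* had 0.30 and 0.26, while *Gabra2* had 0.05 and *Gabra4* -0.01. None of these values passed the test.

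Ratios within a library do not depend on its size factor, and 4 ratios that shift as cortex matures were tested in Fezf2-/- against Fezf2+/+, of which 3 are reported. *Gria2* relative to the sum of *Gria1*, *Gria3* and *Gria4* was 0.9996, 0.9986 and 1.26 in Fezf2+/+, 0.932, 0.854, 0.946 and 0.934 in Fezf2-/-, and 1.06 and 1.23 in Fezf2-/-; Fezf2-EnR. Every Fezf2-/- ratio was below every other one. The highest values, 1.26 and 1.23, were those of bc203 and bc209, both of litter m2. Within litter m1 the ratios lay closer, at 0.9996 and 0.9986 in Fezf2+/+ and 0.854 and 0.946 in Fezf2-/-. The difference was -0.24 on the log2 scale (exact two-sided permutation test, p = 0.0286, 0.114 after adjustment over 4 ratios) and did not pass the correction. This p is the smallest that 35 arrangements allow, and 1 ratio alone at this p could not pass, so no conclusion is drawn from the correction. Between Fezf2-/-; Fezf2-EnR and Fezf2-/- the difference was 0.32. *Grin2a* to *Grin2b* was 0.0260, 0.0328 and 0.0355, then 0.0298, 0.0428, 0.0404 and 0.0332, then 0.0285 and 0.0228 (0.22 on the log2 scale, exact p = 0.257, adjusted 0.343). The chloride exporter gene *Slc12a5* (KCC2) relative to the importer gene *Slc12a2* (NKCC1), which sets whether GABA excites or inhibits, was 1.28, 1.57 and 1.48, then 1.88, 1.74, 1.36 and 1.98, then 1.79 and 1.003 (0.26 on the log2 scale, exact p = 0.143, adjusted 0.286). Both of these ratios overlapped between Fezf2-/- and Fezf2+/+.

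**Figure D4:**
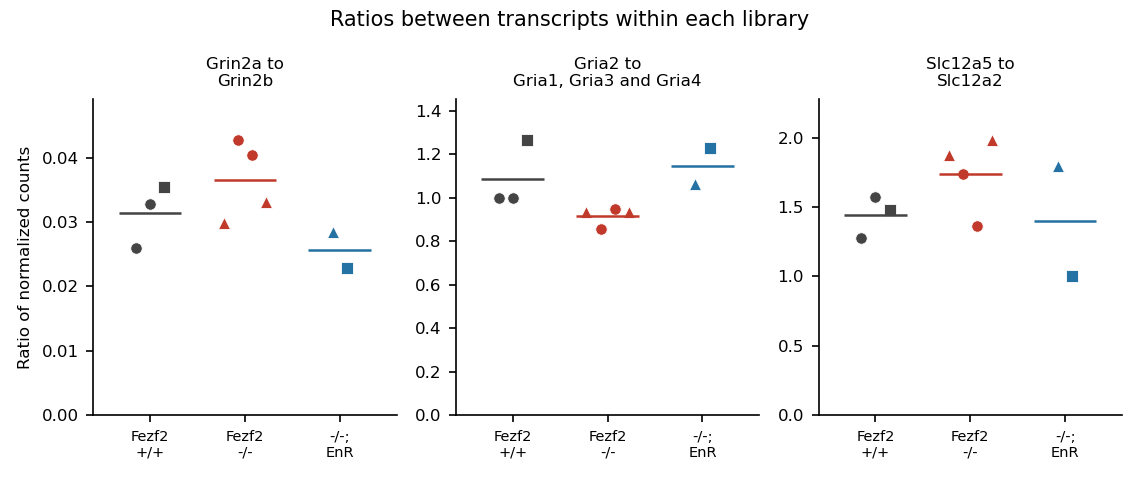
The 3 reported ratios of normalized counts within each library, 1 point per mouse shaped by litter (circle m1, square m2, triangle m3), with a line at the mean of each genotype. Of these, only the ratio of *Gria2* to the other AMPA genes has no overlap between Fezf2-/- (0.854 to 0.946) and Fezf2+/+ (0.999 to 1.26).

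Genes that serve these receptors were read from the same fit, as a list of 52 chosen by function: auxiliary subunits, secreted ligands, scaffolds, the inhibitory postsynaptic apparatus and chloride transporters, of which 51 were tested. In Fezf2-/- against Fezf2+/+, 1 was called, and 7 were higher and 3 lower at an unadjusted p under 0.05. Over all genes, 0.858% were called, and 6.61% were higher and 4.21% lower at that threshold. The called gene was *Gsg1l*, an auxiliary subunit that slows AMPA receptor recovery and dampens their current. It had normalized counts of 569, 542 and 561 in Fezf2+/+, 331, 327, 322 and 360 in Fezf2-/-, and 501 and 472 in Fezf2-/-; Fezf2-EnR. *Gsg1l* fell in Fezf2-/- relative to Fezf2+/+ (log2 fold change -0.73, SE 0.07, limma adjusted p = 0.000671) and rose with the transgene relative to Fezf2-/- (0.54, SE 0.08, adjusted p = 0.0189), where it stayed below every Fezf2+/+ library (-0.20, SE 0.09, adjusted p = 0.251). Fezf2-/-; Fezf2-EnR against Fezf2-/- called 2 of the 51, with 2 higher and 12 lower at an unadjusted p under 0.05. Over all genes it called 0.766%, with 7.87% higher and 9.06% lower at that threshold. Beside *Gsg1l*, the called gene of the list was *Iqsec3*, a gephyrin-binding protein of inhibitory synapses, at 700, 804 and 808, then 1019, 997, 1050 and 1073, then 770 and 562. It fell in Fezf2-/-; Fezf2-EnR against Fezf2-/- (-0.65, SE 0.12, adjusted p = 0.0332) and did not pass in Fezf2-/- against Fezf2+/+ (0.43, SE 0.10, adjusted p = 0.119). In the comparison of Fezf2-/-; Fezf2-EnR with Fezf2+/+, 0 of the 51 were called, with 2 higher and 7 lower at an unadjusted p under 0.05. All genes gave 0.117% called, 10.5% higher and 8.72% lower. The 21 scaffolds of excitatory synapses had 0 called genes in any of the 3 comparisons, with a median log2 fold change of 0.05 in Fezf2-/- against Fezf2+/+.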

How the data were processed

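The 9 RNA-seq libraries of P0 cortices were grouped by the genotype in the labels. The authors prepared poly(A) libraries, counted reads per gene and divided each library by a DESeq size factor, so the deposited values are a normalized signal (counts per size factor). The submitters' processing notes name Bowtie, STAR, DESeq and mm10, and the paper also names TopHat. The counting tool, annotation release and strand use are not given in the sources used here.

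Here, genes were matched by identifier to the GENCODE annotation of GRCm38 (24595 of 24624) for coordinates and merged exon length. A pseudocount of 1 was added, and the log2 values of 16197 genes averaging 10 or more entered limma 3.58.1 (R 4.3.3, lmFit and eBayes with trend=TRUE), where each genotype had its own coefficient and all 9 libraries shared 1 spread. Benjamini-Hochberg adjustment ran over all genes tested, and a gene was called when its adjusted p was under 0.05. All log2 fold changes use this scale. Ratios were tested with exact two-sided permutation tests over all arrangements of the libraries. Each library is 1 mouse, and the p-values measure the spread between mice. Whole reads were recovered in 7 libraries (100.0% of values within 0.1 of a whole read), and edgeR 4.0.16 (quasi-likelihood) and DESeq2 1.42.0 were run on these as alternatives, for Fezf2-/- against Fezf2+/+ only, with bc204 and bc208 left out. The limma, edgeR and DESeq2 fits were each tested on simulated data.

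Named with values are all members called, those with an unadjusted p under 0.05 in Fezf2-/- against Fezf2+/+ or Fezf2-/-; Fezf2-EnR against Fezf2-/-, and the 2 highest of each subfamily, except that 5 members and 1 ratio, which stay in the counts, medians and adjustments, are not reported here. The members, lists and tests were chosen with earlier results of these data known. Alternatives were pseudocounts of 0.1 and 10, no filter and a mean of at least 50, rescaling by TMM or median-ratio factors, fits of just the 2 groups, a term for litter, litter m1 by itself, omission of each library in turn, an unadjusted threshold and, chosen after the data were examined, the removal of litter m3.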

Additional observations from a re-analysis of the deposited data

Results flagged for a closer look

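Each of the 37 members tested was examined in the 4 Fezf2-/- libraries for a sample far from the others, by the gap to its nearest neighbour over the whole range, and 3 were beyond Dixon's critical value at the 95% level. Chance alone gives this in about 1 of 20 groups. *Gabra5* was low in bc205 at 2268 normalized counts, while the other 3 lay at 2568 to 2618. *Grin2c* was high in bc204 at 20.1, against 9.38 to 10.9, on few reads. *Grm7* was high in bc207 at 1461, against 1237 to 1259. *Gabra5* and *Grm7* lay above all Fezf2+/+ libraries in every Fezf2-/- library, and *Grin2c* overlapped.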

How the results depend on the processing

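In Fezf2-/- against Fezf2+/+ (0 members called), 1 member was called with no filter (*Gria1*; 0.621% of all genes tested), 3 with only the 2 groups compared (*Gabra5*, *Gria1* and *Grik1*; 1.36%), 2 within litter m1 (*Gria1* and *Grin2a*; 1.44%), 6 by DESeq2 on recovered reads (*Gabra5*, *Gria1*, *Gria4*, *Grik1*, *Grm5* and *Grm7*; 1.28%), 1 without litter m3 (*Gria1*; 0.821%) and 16 at an unadjusted p under 0.05 (10.8%). edgeR on the same reads called 0, as did limma on the same 7 libraries and the fit with litter as a block. Leaving out 1 library gave 0 to 3, the latter without bc208 (1.32% of all genes) or without bc209 (1.34%). In Fezf2-/-; Fezf2-EnR against Fezf2-/- (1 called), leaving out 1 library gave 0 (without bc209; 0.13% of all genes) to 10 (without bc208; 6.72%), removal of litter m3 gave 10 (6.43%) and the unadjusted threshold 15 (16.9%), and every other alternative, the litter block included, gave *Grik3* alone. In Fezf2-/-; Fezf2-EnR against Fezf2+/+ (0 called), leaving out 1 library gave 0 to 3, the latter without bc208 (*Gabra5*, *Grik4* and *Grm4*; 3.03% of all genes), removal of litter m3 gave 4 (5.52%) and the unadjusted threshold 9 (19.3%). The cause of these shifts was not tested. None of the 40 fold changes with an unadjusted p under 0.05 changed sign under any alternative run. They were picked by that p in the main fit, and the alternatives reuse the same libraries. The kept signs are therefore no separate support for the directions. Library numbers are not shared between genotypes and so pair no libraries, and litter, which is partly crossed with genotype, was used as the block instead. With 2 Fezf2-/-; Fezf2-EnR mice, their differences rest on the spread shared by all groups, and members under about 50 normalized counts are limited by counting error. Without bc208, without bc209 or without litter m3, that group holds 1 mouse, and no conclusion is drawn from members that pass there.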
